A study of Mus musculus with 3 samples.

Results

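MiR-132 and miR-212 are microRNAs (miRNAs) made from neighbouring hairpins, and each hairpin gives a mature form from its 5′ arm (5p) and its 3′ arm (3p). The mature forms mmu-miR-132-3p, mmu-miR-132-5p, mmu-miR-212-3p and mmu-miR-212-5p were taken by name from the count tables of the mouse retina. All 4 were present, of 1915 mature miRNAs in all. Retinas of C57BL/6 mice (C57BL/6J in the study's methods) were sequenced at postnatal day 1 (P1), day 7 (P7) and day 17 (P17), to follow miRNAs over the period in which the retinal vessels form. For each age the retinas of 5 eyes were pooled and made into 1 small RNA library, and the labels give no treatment and no genetic change at any age. There were therefore no replicates, no difference between ages could be tested against the spread between animals, and age and library cannot be told apart. Levels are given in RPM, reads per 1000000 miRNA reads of the library, the unit in which the values were deposited. Each error is a 95% interval that covers counting error only, because each age has 1 library. The interval takes reads as independent. Reads copied by PCR and lacking molecular identifiers are not independent molecules, so it can be too narrow.

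Both hairpins are cut from a shared primary transcript, whose promoter is a known target of the transcription factor CREB. In neurons, synaptic activity and the neurotrophin BDNF are known to raise this transcript, and miR-132 is known to promote dendrite growth. In endothelial cells, miR-132 is known to lower the Ras GTPase-activating protein RASA1 and to favour vessel growth. Mice open their eyes between P7 and P17, so that patterned light reaches the retina in that interval. The files hold no measure of neuronal activity, so the name "activity-regulated" could not be checked against them.

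The mature sequences are shown because the seed, bases 2 to 8 from the 5′ end, largely sets which messenger RNAs a miRNA pairs with. They are RefSeq sequences on GRCm38.p6, printed 5′ to 3′ with the seed in capitals.
miR-132-3p: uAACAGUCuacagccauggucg
miR-212-3p: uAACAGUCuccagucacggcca
miR-132-5p: aACCGUGGcuuucgauuguuac
miR-212-5p: aCCUUGGCucuagacugcuuacu
The 3p forms shared the seed AACAGUC and were identical over their first 9 bases. They differed at 5 of 22 positions, A10C, C14U, U17C, U20C and G22A, with the base of miR-132-3p written before the position and that of miR-212-3p after it, counted from the 5′ end. The 5p forms had different seeds, ACCGUGG and CCUUGGC, and matched at 9 of 22 positions when laid side by side without gaps. Among the 1623 miRNAs of the files that had a RefSeq sequence, no other carried any of these 3 seeds.

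On GRCm38, the assembly that mm10 denotes, the hairpin of miR-212 (Mir212, ENSMUSG00000065590) lies on the plus strand of chromosome 11 from 75173388 to 75173478, and that of miR-132 (Mir132, ENSMUSG00000065537) from 75173682 to 75173747, with 203 bases between them. Both lie within the non-coding gene 1700016P03Rik (ENSMUSG00000085609, 75172560 to 75177633) on the same strand, in the intron between its exons at 75172560 to 75172597 and 75173978 to 75174161. Neither hairpin overlapped an exon of another gene. The protein-coding genes on either side, Hic1 (75164565 to 75169519) and Ovca2 (75175942 to 75178835), are on the minus strand.

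The libraries held between 11426320 (P1) and 12759995 (P7) miRNA reads, so that 1 read was worth 0.0784 to 0.0875 RPM and 3 reads, taken as the detection floor, 0.235 to 0.263 RPM. All 6 markers of the neuronal retina (miR-124-3p, both arms of miR-9, and miR-183-5p, miR-96-5p and miR-182-5p) had reads at every age, with summed levels of 229917 to 437939 RPM. Markers of other cells were lower than these, with sums of 89.97 to 240 RPM for muscle, 116 to 161 RPM for erythroid cells, 13.04 to 18.1 RPM for myeloid cells, 269 to 645 RPM for lens and cornea and 7226 to 15211 RPM for the pigment epithelium, whose miR-204-5p is also made in the retina. Apart from the myeloid sum, each exceeded the level of miR-132-3p at every age. From P7 to P17, 2 of 3 muscle, 2 of 3 erythroid, 1 of 3 lens and cornea and 1 of 2 pigment epithelium markers were over 2-fold higher in RPM, and none over 2-fold lower. Among the 648 miRNAs defined below, 14.0% were over 2-fold higher and 11.6% lower at that step. From P1 to P7 none of these markers was over 2-fold higher. Over 2-fold lower were 1 of 3 erythroid, 1 of 3 lens and cornea and both pigment epithelium markers, against 44.8% of the 648. The part of these tissues in the levels of miR-132 and miR-212 was not tested. RPM is a share of the miRNA reads, and the sensory cluster (miR-182, miR-183 and miR-96) took 7.85% of them in the P1 library, 30.6% in the P7 library and 30.2% in the P17 library. A miRNA was counted as changed when it differed over 2-fold as log2(RPM + 1), a scale on which rare miRNAs appear to change less, among the 648 miRNAs whose mean over the 3 libraries reached 1 RPM. All 4 mature forms of miR-132 and miR-212 were among the 648.

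Each of the 4 mature forms was lowest at P1, intermediate at P7 and highest at P17. Mmu-miR-132-3p, the arm usually taken as the active strand, was counted 333 times in the P1 library, 582 times in the P7 library and 1529 times in the P17 library. These reads gave 29.1 RPM for P1 (Wilson interval 26.2 to 32.4), 45.6 RPM for P7 (42.1 to 49.5) and 131 RPM for P17 (125 to 138), and the intervals did not overlap. By reads, it moved from place 354 at P1 through place 235 to place 168 at P17 among the 1915 miRNAs. Mmu-miR-132-5p, the opposite arm, had 303, 541 and 1519 reads in order of age, or 26.5 RPM (23.7 to 29.7), 42.4 RPM (39.0 to 46.1) and 130.28 RPM (124 to 137). It stood close below miR-132-3p in each library, in places 367, 240 and 169.

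The miR-212 hairpin gave fewer reads at every age. Mmu-miR-212-5p had 125, 224 and 640 reads in order of age, or 10.9 RPM (9.18 to 13.03), 17.6 RPM (15.4 to 20.01) and 54.9 RPM (50.8 to 59.3). Mmu-miR-212-3p, which has the seed of miR-132-3p, was the rarest, with 10, 17 and 58 reads. Its levels of 0.88 RPM at P1 (0.475 to 1.61) and 1.33 RPM at P7 (0.832 to 2.13) overlapped within counting error, while that at P17, 4.97 RPM (3.85 to 6.43), lay above both. The order of the levels was the same at each age, miR-132-3p, miR-132-5p, miR-212-5p and miR-212-3p, and only the leading pair had overlapping intervals. Levels of different miRNAs are compared here as reads, each covering a mature form of 22 or 23 bases, and how well the library preparation captured each sequence was not measured.

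**Figure D1:**
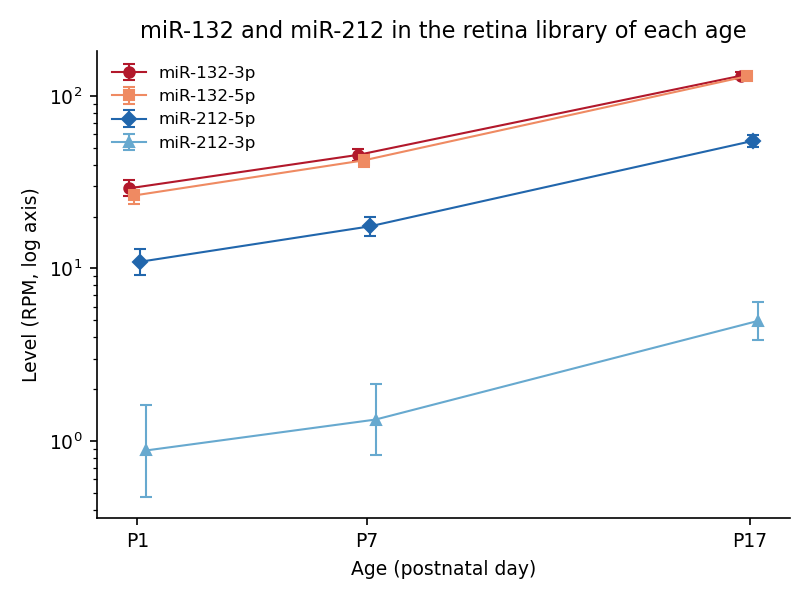
Level of each mature form of miR-132 and miR-212 (RPM, log axis) against age, with the ages to scale on the horizontal axis, a small offset between forms and 1 library per age. Bars are Wilson intervals of counting error. All 4 lines climb from P1 to P17, miR-132-3p from 29.1 to 131 RPM and miR-212-3p from 0.88 to 4.97 RPM, and keep their order.

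Together the 4 forms took 67.5 RPM (62.9 to 72.4) in the P1 library, 107 RPM (101 to 113) in the P7 library and 321 RPM (311 to 332) in the P17 library. The summed reads were 1.58-fold higher at P7 than at P1 (exact binomial interval 1.45 to 1.73) and 3.01-fold higher at P17 than at P7 (2.82 to 3.20), or 4.76-fold higher at P17 than at P1 (4.41 to 5.15). The interval from P1 to P7 is 6 days and that from P7 to P17 is 10 days.

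From P1 to P7, none of the 4 forms was over 2-fold higher in RPM, where 3.09% of the 648 miRNAs were higher by that much and 44.8% lower. The ratio of P7 to P1 without a pseudocount was 1.57 for miR-132-3p (1.37 to 1.80), 1.60 for miR-132-5p (1.39 to 1.85) and 1.60 for miR-212-5p (1.28 to 2.01). These differences exceeded the counting error of independent reads. That of miR-212-3p was 1.52 with an interval from 0.658 to 3.72, and no difference was detectable at this depth. On the log2(RPM + 1) scale the 4 differences were 0.63, 0.66, 0.64 and, for miR-212-3p, 0.31, while the median of all 648 miRNAs was -0.87. Relative to that median, they were 1.18 to 1.52 higher.

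From P7 to P17, all 4 forms were over 2-fold higher, against 14.0% of the 648 miRNAs. The 4 forms come from a shared primary transcript and were read in the same libraries. They are therefore not independent, in this count or in those for other steps and scalings. The ratio of P17 to P7 was 2.88 for miR-132-3p (2.61 to 3.17), 3.07 for miR-132-5p (2.78 to 3.40), 3.13 for miR-212-5p (2.68 to 3.66) and 3.73 for miR-212-3p (2.14 to 6.84). On the log2(RPM + 1) scale the differences lay between 1.36 and 1.60, with a median of -0.05 over all 648 miRNAs. All 4 intervals of the ratio lay above 2. With a pseudocount of 5 RPM the difference of miR-212-3p was 0.66, under 2-fold, and the other 3 forms stayed over 2-fold higher.

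From P1 to P17, again all 4 forms, which are not independent, were over 2-fold higher, against 10.5% of the 648 miRNAs. Of the 648, 46.8% were over 2-fold lower. The log2 difference was 2.13 for miR-132-3p, 2.25 for miR-132-5p, 2.23 for miR-212-5p and 1.67 for miR-212-3p, against a median of -0.91. Ranked from the highest difference down, they held places 34, 30, 31 and 43 of 648. Without the pseudocount the ratios were 4.50 (3.99 to 5.08), 4.91 (4.34 to 5.58), 5.02 (4.14 to 6.13) and 5.68 (2.88 to 12.5) in the same order, so the place of miR-212-3p below the others came with the pseudocount. With a pseudocount of 5 RPM its difference was 0.76, under 2-fold, and the other 3 forms stayed over 2-fold higher. A higher value at both steps, of any size, was seen in RPM for all 4 forms and for 10.5% of the 648 miRNAs. The median step from P1 to P7 was -0.87 in RPM, and this share was not counted under other scalings of the libraries.

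**Figure D2:**
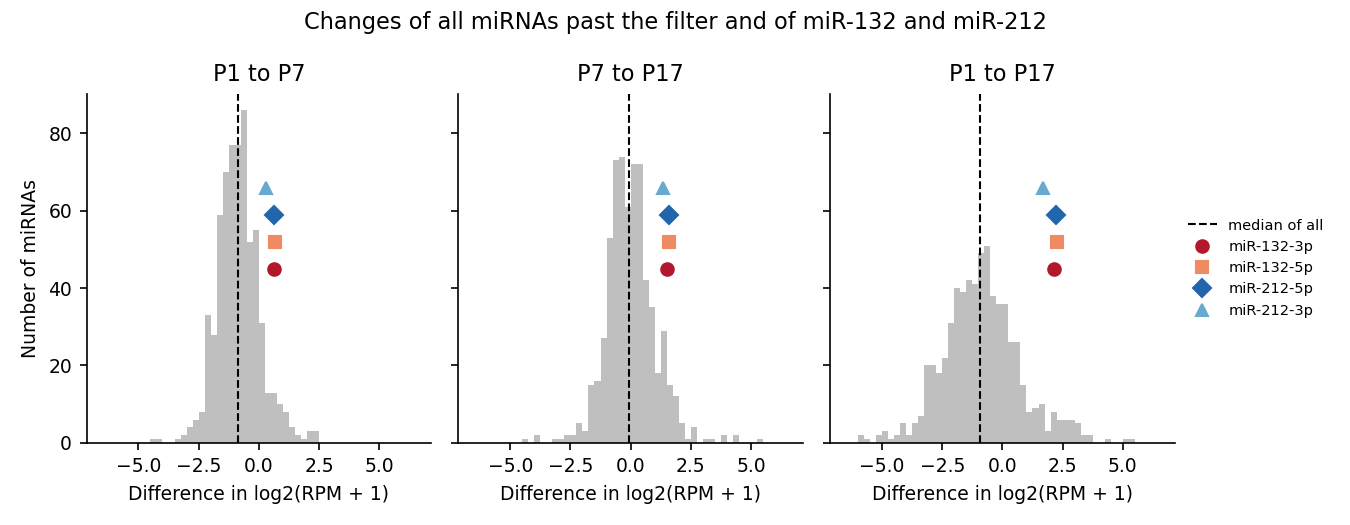
Number of miRNAs (vertical axis) by their difference in log2(RPM + 1) between 2 ages (horizontal axis), for the 648 miRNAs past the filter. The dashed line is their median, and the coloured symbols mark miR-132 and miR-212 by their horizontal position only, with heights chosen so that they do not overlap. The 4 forms lie right of the median in each panel, by 2.58 to 3.16 from P1 to P17.

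The size of the step from P1 to P7 depended on the scaling of the libraries, and all 4 forms were higher at P7 under each. Every other scaling raised the median difference of the 648 miRNAs above that in RPM, so none could have turned the direction. With median-of-ratios size factors, which bring the median difference of the 648 miRNAs from P1 to P7 from -0.87 to -0.04, miR-132-3p was higher by 1.56, miR-132-5p by 1.58, miR-212-5p by 1.51 and miR-212-3p by 0.77 on the log2 scale. Then 3 of the 4 forms were over 2-fold higher from P1 to P7, against 9.57% of the 648 miRNAs. The value of miR-212-3p is lowered by the pseudocount on its 10 and 17 reads. Without a pseudocount its ratio in RPM was 1.52 (0.658 to 3.72), near those of the other forms, and size factors scale all forms of a library alike. The step from P7 to P17 was 1.51 to 1.69 with median-of-ratios size factors, with 16.0% of the 648 miRNAs over 2-fold higher, against 1.36 to 1.60 in RPM. Thus the step after P7 was the larger for all 4 forms in RPM. With median-of-ratios size factors the steps of miR-132-3p, 1.56 and 1.59, were nearly equal. With TMM factors, another scaling to the typical miRNA, its earlier step was the larger, at 1.58 against 1.57. For the other 3 forms the later step stayed the larger with either set of factors. The steps last 6 and 10 days, so equal steps are not equal rates. The difference from P1 to P17 was 2.28 to 3.27 with median-of-ratios size factors, with 25.5% of the 648 miRNAs over 2-fold higher.

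**Figure D3:**
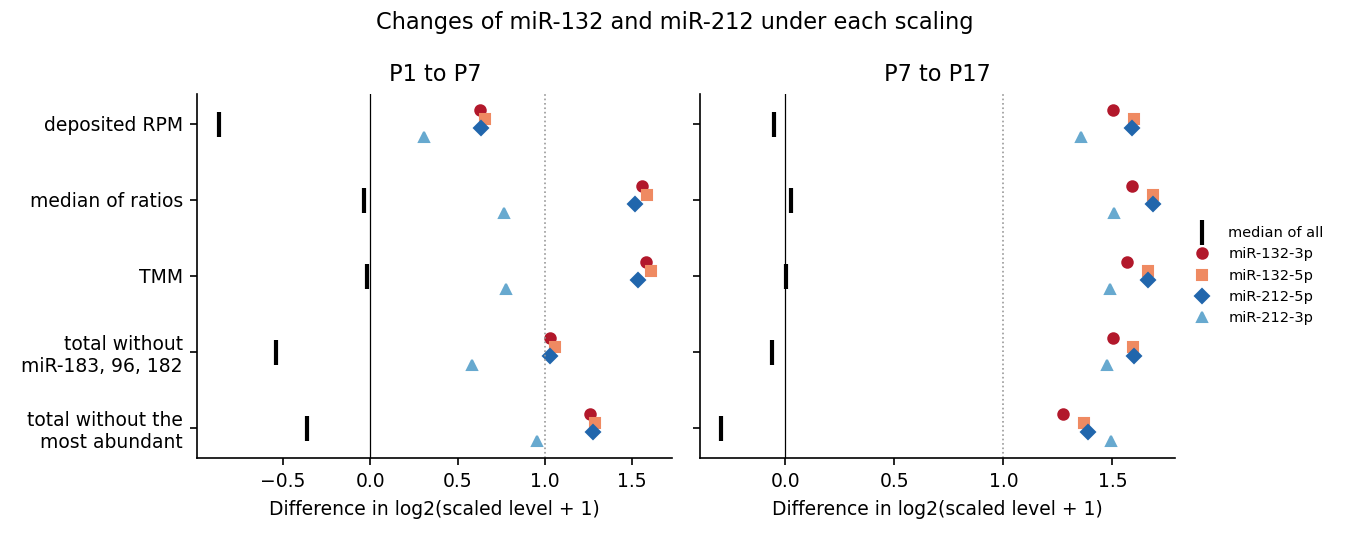
Difference in log2(scaled level + 1) (horizontal axis) of miR-132 and miR-212 for the step before P7 (left) and the step after it (right), under RPM and 4 other scalings (rows). Black bars are the median of the 648 miRNAs and the dotted line marks 2-fold. The symbols lie right of 0 in every row, and from P1 to P7 miR-132-3p lies at 0.63 in RPM and at 1.56 with median-of-ratios size factors.

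The ratio between forms in the same library does not depend on the scaling. The arms of miR-132 gave nearly equal reads, with 0.910 reads of the 5p form per read of the 3p form at P1 (exact binomial interval 0.776 to 1.07), 0.930 at P7 (0.825 to 1.05) and 0.993 at P17 (0.925 to 1.07). The 5p share was 47.6% to 49.8%. The arms of miR-212 were uneven, with 12.5 reads of the 5p form per read of the 3p form at P1 (6.58 to 26.7), 13.2 at P7 (8.05 to 23.0) and 11.0 at P17 (8.43 to 14.7). Each interval of miR-132 held 1, and each of miR-212 lay far above it, so that the hairpins differed in which arm gave the reads. Where the arms of miR-132 were even, 91.7% to 92.9% of the reads of miR-212 were of the arm that does not carry the shared seed.

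Neither balance changed detectably with age. Over the whole period the log2 of this ratio changed by 0.13 in miR-132 (exact conditional interval -0.13 to 0.38) and by -0.18 in miR-212 (-1.35 to 0.85). In 190 hairpins whose arms both passed the filter, the log2 ratio of the arms spanned a median of 0.90 over the 3 ages, with quartiles of 0.54 and 1.42. It spanned 0.13 for miR-132, which was place 3 from the smallest, and 0.26 for miR-212, place 12. The counting intervals of both changes are wider than these spans, so neither place was resolved, least of all that of miR-212. Of the 111 hairpins with more reads than miR-132, 1 spanned less. In 4 of the 190 hairpins, miR-132, miR-142a, miR-144 and miR-490, the 5p share stayed between 40% and 60% at all 3 ages; this class was set after the values were seen.

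The proportion between the hairpins was also nearly constant. For each read of miR-212-5p there were 2.42 reads of miR-132-5p at P1 (1.96 to 3.01), 2.42 at P7 (2.06 to 2.83) and 2.37 at P17 (2.16 to 2.61), a log2 change from P1 to P17 of -0.03 (-0.37 to 0.31). For each read of miR-212-3p there were 33.3 reads of miR-132-3p at P1 (17.9 to 70.1), 34.2 at P7 (21.2 to 59.2) and 26.4 at P17 (20.3 to 34.9), a change of -0.34 (-1.49 to 0.66). With the arms summed, miR-132 gave 81.4% to 82.5% of the reads of the pair. The intervals of these changes held 0, and for the 3p forms they leave room for a change of over 2-fold in miR-212-3p relative to miR-132-3p.

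**Figure D4:**
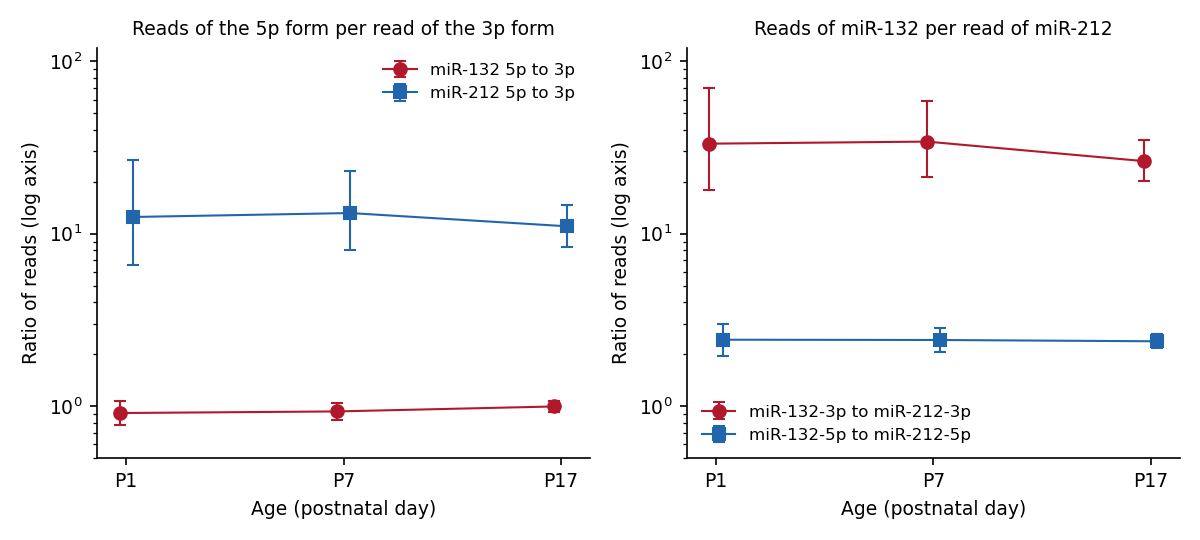
Ratio of reads (log axis) of the 5p to the 3p form of each hairpin (left) and of miR-132 to miR-212 for each arm (right), at each age, with exact binomial intervals of counting error. The miR-132 arms stay near 1 and the miR-212 arms at 11.0 to 13.2, and the ratio of the 5p forms stays at 2.37 to 2.42.

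Summed over miR-132-3p and miR-212-3p, the miRNAs of the files with the seed AACAGUC reached 30.02 RPM in the P1 library, 46.9 RPM in the P7 library and 136 RPM in the P17 library. Among 1352 seeds, with the levels of all matched miRNAs of a seed summed, this was place 235 at P1, place 161 at P7 and place 115 at P17. MiR-132-3p gave 97.1%, 97.2% and 96.3% of the reads with this seed, so its level set that of the family. The seed of miR-132-5p alone reached 26.5, 42.4 and 130.28 RPM, next to it in place 116 at P17.

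Among other miRNAs encoded within 1 Mb on chromosome 11, those of Mir22 start 290025 bases beyond the end of Mir132 for the 3p form. MiR-22-3p, which is widely expressed, had 324, 292 and 937 RPM in order of age, a difference of 1.68 on the log2 scale from P7 to P17. From P1 to P7 its difference was -0.15 in RPM and 0.81 with median-of-ratios size factors, below those of miR-132-3p on either scale (0.63 and 1.56). The mature forms of Mir6926 and Mir3971 had 0 reads at every age, which allows up to 0.263 RPM.

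The list of 10 other miRNAs known from neuronal activity or synapses held members that moved with miR-132 and miR-212 and others that did not. From P1 to P17, 2 of the 10 were over 2-fold higher, against 10.5% of the 648 miRNAs, and 4 over 2-fold lower in RPM, close to the 46.8% of all, with a median of -0.33 against -0.91 for all 648 miRNAs. With median-of-ratios size factors 5 were higher, against 25.5% of all, and 1 lower, against 23.9%, with a median of 0.72 against 0.01. The ones over 2-fold higher in RPM were miR-124-3p, the miRNA characteristic of neurons, with 1544, 2055 and 12777 RPM at P1, P7 and P17, and miR-129-5p, which is enriched in brain and retina, with 1258, 2255 and 10438 RPM. Both were higher at each step, as miR-132 was, and by 2.64 and 2.21 on the log2 scale from P7 to P17. The ratio of P17 to P1 was 8.28 for miR-124-3p and 8.30 for miR-129-5p, and relative to them miR-132-3p changed by -0.88 on the log2 scale in each case (intervals -1.05 to -0.70 and -1.06 to -0.71).

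Other miRNAs of this list took different courses. MiR-134-5p, which acts on dendritic spines through Limk1, had 441, 162 and 155 RPM, and miR-128-3p, a brain-enriched miRNA, 9375, 4134 and 4060 RPM. MiR-188-5p had 170, 54 and 29 reads. MiR-219a-5p, known for its role in myelinating cells, had 15.9, 13.9 and 6.95 RPM. These 4 were the ones over 2-fold lower from P1 to P17 in RPM, and with median-of-ratios size factors only miR-188-5p was. MiR-138-5p, also known from dendritic spines, had 161 RPM at P1 and 200.1 RPM at P17, miR-485-5p 35.4, 26.6 and 62.4 RPM, and miR-191-5p 2699, 2637 and 4188 RPM, so that these 3 were lower at P7 in RPM and higher at P17. That first direction turned with median-of-ratios size factors, where they were higher at P7 by 0.27, 0.53 and 0.93, and over 2-fold higher from P1 to P17 by 1.35, 1.82 and 1.68. MiR-9-5p, a regulator of neural progenitors and the most abundant miRNA at P1, differed by -0.96 from P1 to P17 in RPM and by 0.08 with those size factors.

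Of the 5 miRNAs known to respond to light in the retina, 4 were over 2-fold higher from P1 to P17, against 10.5% of the 648 miRNAs in RPM, and 4 with median-of-ratios size factors, against 25.5%. Because miR-183-5p, miR-96-5p and miR-182-5p belong to a shared cluster, these 4 are not independent. MiR-183-5p, miR-96-5p and miR-182-5p, the sensory cluster of photoreceptors, were higher mainly before P7, by 1.56, 2.23 and 2.13 from P1 to P7 and by 0.57, -0.14 and -0.35 from P7 to P17. MiR-211-5p, made from an intron of the bipolar cell gene Trpm1, had 550, 259 and 5315 RPM and was higher by 4.36 from P7 to P17. It is also among the markers of the pigment epithelium. MiR-204-5p, which has the same seed as miR-211-5p, had 14662, 6967 and 9019 RPM, a difference from P1 to P17 of -0.70 in RPM and of 0.34 with median-of-ratios size factors. In RPM, none of the 5 was over 2-fold higher after P7 and also higher before it, as miR-132 and miR-212 were. That course was taken from miR-132 and miR-212 themselves, and its share among the 648 miRNAs was not counted. Only 10.5% of the 648 were higher at both steps by any size, so the absence of that course among 5 miRNAs says little.

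**Figure D5:**
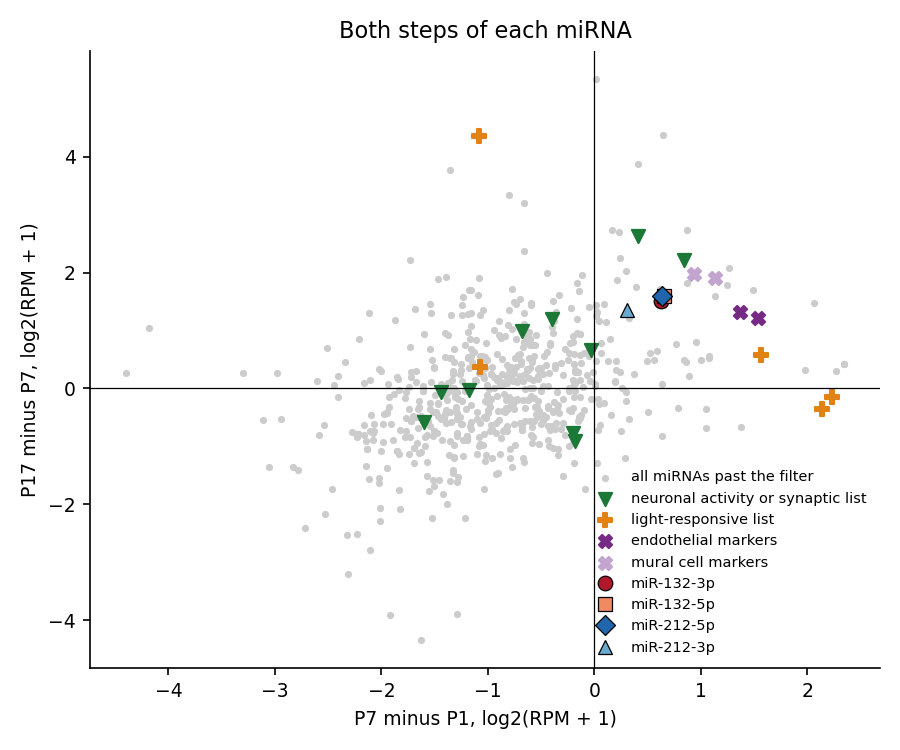
Difference in log2(RPM + 1) from P7 to P17 (vertical axis) against that from P1 to P7 (horizontal axis) for the 648 miRNAs past the filter (grey) and for the named lists; the axes share the P7 library. MiR-132-3p, miR-132-5p and miR-212-5p lie together at 0.63 to 0.66 on the horizontal axis and at no more than 1.60 on the vertical, and miR-212-3p at 0.31 and 1.36.

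By the distance between the steps on the log2(RPM + 1) scale, over 3 libraries, the miRNA nearest to miR-132-5p of the 648 was miR-212-5p (distance 0.022), followed by miR-132-3p (0.098) and miR-190b-5p (0.13). The nearest to miR-132-3p was miR-344b-3p (0.054), with 24, 48 and 140 reads, then miR-129-1-3p (0.069), with 46, 88 and 238 reads, and miR-212-5p (0.088). For miR-212-5p the nearest were miR-132-5p, miR-132-3p and miR-190b-5p (0.13), which had 186, 284 and 937 RPM. MiR-212-3p lay nearest to miR-376b-5p (0.14), miR-100-5p (0.24) and miR-144-3p (0.28), and further from the other forms of its locus, with miR-132-3p in place 9 (0.35). With 10 reads of miR-212-3p at P1, the pseudocount enters its distances strongly. The counting interval of the log2 ratio from P1 to P7 was 0.45 to 0.84 for miR-132-3p, 0.47 to 0.88 for miR-132-5p and 0.36 to 1.01 for miR-212-5p. These intervals are wider than the distances named for these forms, so the order of their nearest miRNAs was not resolved.

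Markers of vessel cells moved in the same direction as miR-132 and miR-212. The endothelial markers, miR-126a-3p and miR-126a-5p, are arms of the same hairpin and are therefore not independent. Both were over 2-fold higher at each step, against 3.09% of the 648 miRNAs before P7 and 14.0% after it. Their sums were 1261, 3643 and 8530 RPM in order of age, and the mural cell markers miR-143-3p and miR-145a-5p had sums of 195, 376 and 1492 RPM. MiR-126a-3p, the endothelial miRNA, was 2.90-fold higher at P7 than at P1 (2.84 to 2.95) and 2.34-fold higher at P17 than at P7 (2.31 to 2.36). Relative to it, miR-132-3p changed by -0.89 from P1 to P7 (-1.09 to -0.69) and by 0.30 from P7 to P17 (0.16 to 0.44) on the log2 scale. Relative to miR-143-3p it changed by -0.29 (-0.50 to -0.08) and by -0.46 (-0.61 to -0.32). The part of vessel cells in the levels of miR-132 and miR-212 was not tested, and in whole retina more cells of a type and more RNA per cell cannot be told apart.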

How the data were processed

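Total RNA from retinas pooled from 5 eyes per age was made into small RNA libraries (NEBNext) and sequenced on an Illumina HiSeq. The authors trimmed adaptors and dropped reads of low quality. The study's methods name HISAT2 with mm10, whereas the submitters' processing notes list FastQC, BWA and mm10; the miRNA annotation and counting rule are not given in the sources used here. The authors deposited raw read counts and RPM values per mature miRNA. The deposited RPM equalled the count over the summed miRNA counts of the library to within 0.0192 RPM. Reads were not used here, so trimming, alignment and counting were not varied, nor was the sharing of reads between similar sequences.

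With 1 library per age no test was made. Differences of log2(RPM + 1) were computed, and the study's criterion of over 2-fold was applied to miRNAs averaging 1 RPM or more over the libraries; its adjusted p could not be used. Levels have 95% Wilson intervals, ratios exact binomial intervals and changes of ratios exact conditional intervals, for counting error only. The members, lists and settings were chosen with earlier results of these data known. Besides the members, the named miRNAs were those of the lists, markers, the 3 nearest to each member by steps, and, singled out after their values were seen, those encoded within 1 Mb and the hairpins with even arms. Sequences were matched by name to RefSeq (1623 of 1915), and genes came from GENCODE M21. Alternatives were pseudocounts of 0.1 and 5 RPM or none, filters, fold criteria, median-of-ratios size factors (644 miRNAs; 1.50, 0.862 and 0.743 at P1, P7 and P17), TMM factors (1.60, 0.808 and 0.774) and reduced totals. The differences, 2-fold calls and ratio intervals were tried on simulated counts of independent reads, with known changes at P17 only. The other scalings, the arm ratios and copies made by PCR were not covered by that trial. The software was edgeR 4.0.16 in R 4.3.3, and scipy 1.17.1, pandas 2.3.3 and numpy 2.4.6 in Python 3.11.15.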

Additional observations from a re-analysis of the deposited data

How the results depend on the processing

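All 84 alternative values of the differences of the 4 forms were above 0. From P1 to P7 and from P1 to P17 the other scalings could not have turned them below 0, because each raised the median difference. A value was taken as moved when it lay further from the RPM value than the bounds of the 95% counting interval of the ratio lie from the ratio, and a count when not within 1.5 times; the cause was not tested. From P1 to P17, miR-132-3p, miR-132-5p and miR-212-5p were at 2.13, 2.25 and 2.23 in RPM. They moved to 3.15, 3.27 and 3.20 with median-of-ratios size factors, to 3.15, 3.27 and 3.20 with TMM factors, to 2.53, 2.66 and 2.63 when miR-182, miR-183 and miR-96 were left out of the total, and to 2.53, 2.66 and 2.66 when the 10 leading miRNAs of any library were, and miR-212-5p to 1.91 with a pseudocount of 5 RPM. MiR-212-3p, with 10 reads at P1, has wide bounds, within which its alternatives lay, but a pseudocount of 5 RPM ended its 2-fold calls, at 0.76 from P1 to P17 against 1.67 and at 0.66 from P7 to P17 against 1.36. Of 56 values for the single steps, 14 moved, 12 to larger and 2 to smaller differences. The numbers over 2-fold higher and lower from P1 to P17, 68 and 303, became 165 and 155 with either set of factors and 38 and 141 with a fold criterion of 4, so that rises were 18.3% of the changes in RPM and 51.6% with either set of factors. With a pseudocount of 1 RPM the log2 ratio of miR-212-5p to miR-212-3p became 2.67 at P1 and 2.99 at P7, and that of miR-132-3p to miR-212-3p 4.003 at P1 and 4.32 at P7, each smaller than from reads. Depth limits miR-212-3p. No paired analysis was possible because no age had a replicate library.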
